A study of Mus musculus with 28 samples.

Results

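FoxA1 binding events at the ends of protein-coding genes were described in mouse embryonic stem cells. An event is a single base position that a ChIP-exo event caller placed as a point of protein-DNA crosslinking. The events were selected on their position alone: each belongs to the combined FoxA1 list and lies within 1 kb of the first or last base of a protein-coding gene on mm10/GRCm38. Histone genes on chromosome 13 between 21 and 24 Mb were left out. The 39 events that lay only at these genes were thus not counted as gene-end events. Of the 32948 events of the combined list, 31253 form the comparison group, called events elsewhere, which takes in these 39. The gene-end events numbered 1695 (5.14% of the list, 95% Wilson interval 4.91 to 5.39). They lay at 1660 of the 21833 protein-coding genes considered, or 7.6% of them. Being called in the combined list and lying near a gene end is therefore given by the choice and is no finding.

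FoxA1 is a winged-helix factor of the Forkhead family that can bind its sites in closed chromatin, and it acts in the development of liver, lung, pancreas and other endoderm-derived organs. Forkhead proteins recognise short AT-rich words related to TGTTTAC, and most sites of such factors are known to lie in enhancers at a distance from genes. Gene starts carry the core promoter, where RNA polymerase II begins, and gene stops carry the signals for cleavage and polyadenylation. In ChIP-exo an exonuclease trims the immunoprecipitated DNA up to the crosslinked protein, so that an event is placed within a few bases.

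All lists came from MC1 embryonic stem cells of the 129S6/SvEvTac strain that carried a FLAG-tagged Forkhead transgene at Rosa26, repressed by doxycycline (Dox). Dox removal and growth in differentiation medium switched the transgene on, so every list after 0 h describes an overexpressed factor. The 0 h lists come from 0 h after Dox removal and so describe cells before this switch. No expression was measured, so the cell type could not be checked by its markers. The combined FoxA1 list covers 3 libraries at 24 h, 2 with the anti-FLAG antibody and 1 with an anti-FoxA1 antibody. The FoxC1, FoxL2 and FoxP3 lists cover 2 anti-FLAG libraries each at 24 h. Each of the 2 FoxA1 time courses, 1 per antibody, has a list from 1 library at each of 0, 6, 12, 24 and 48 h. There are 2 libraries of an empty control, for which no list was used here, and 1 of them names anti-FoxA1 in its title but the FLAG antibody in its characteristics. Each factor is carried by 1 cell line, and no list has a replicate list, so intervals cover counting error over events and not the spread between cultures. Events are not replicates of a condition.

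The sequences around events that lay inside an annotated promoter window are shown first, because the Forkhead words in them can be read against the event itself. RefSeq promoter windows (GRCm38.p6, 250 bases before to 50 after a transcription start) were at hand for 17441 of the coding genes, with 21211 windows in all. They held 223 of the gene-end events, in 239 windows of 228 genes. Each sequence below runs 5′ to 3′ on the strand of the gene, has the event at base 31 (base 20 in Ect2), and has in capitals each match on either strand to the word TGTTTAC, to its relative TATTTAC, to the word TGTTTGC or to the word TGTTGAC. These were the highest-scoring events with such a word within 20 bases:
Trmt13 (chr3:116614736-116614796, minus strand): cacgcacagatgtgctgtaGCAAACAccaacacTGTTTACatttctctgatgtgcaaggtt
Trmt13 (chr3:116614610-116614670, minus strand): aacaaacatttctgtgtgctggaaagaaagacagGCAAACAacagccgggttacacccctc
Pml (chr9:58249890-58249950, minus strand): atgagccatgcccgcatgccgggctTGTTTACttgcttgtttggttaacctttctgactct
Rptn (chr3:93393494-93393554, plus strand): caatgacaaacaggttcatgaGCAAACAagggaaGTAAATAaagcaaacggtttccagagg
Stard10 (chr7:101316844-101316904, plus strand): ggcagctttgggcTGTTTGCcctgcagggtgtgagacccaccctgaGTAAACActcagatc
Dusp6 (chr10:99263021-99263081, plus strand): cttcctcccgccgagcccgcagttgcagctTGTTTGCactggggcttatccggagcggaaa
Ect2 (chr3:27154079-27154128, minus strand): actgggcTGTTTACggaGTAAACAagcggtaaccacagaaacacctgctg
Mageb16 (chrX:79671504-79671564, minus strand): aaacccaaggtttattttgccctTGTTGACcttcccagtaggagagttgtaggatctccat
Cald1 (chr6:34598439-34598499, plus strand): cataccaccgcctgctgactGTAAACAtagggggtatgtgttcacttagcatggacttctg

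The 2 Trmt13 events lay at neighbouring places before the same gene start, and Trmt13 encodes a tRNA methyltransferase. The first of them held 2 words with the event between them, as did the event of Rptn, which encodes an epidermal protein. Pml, which encodes the scaffold of nuclear bodies, held TGTTTAC centred 2 bases before the event. In Dusp6, the gene of an ERK phosphatase, TGTTTGC was centred 3 bases after it. The next sequences come from the highest-scoring events that held none of the 4 words within 20 bases, and a missing match says only that these letters are not there:
Fbxo6 (chr4:148152251-148152311, minus strand): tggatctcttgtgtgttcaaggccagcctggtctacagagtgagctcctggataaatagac
Mobp (chr9:120149540-120149600, plus strand): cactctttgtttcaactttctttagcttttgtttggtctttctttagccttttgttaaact
Sh3d19 (chr3:85970941-85971001, plus strand): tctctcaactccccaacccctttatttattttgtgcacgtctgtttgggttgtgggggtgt
Agr2 (chr12:35992715-35992775, plus strand): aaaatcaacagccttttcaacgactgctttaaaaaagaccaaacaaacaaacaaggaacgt

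Over all 223 events in promoter windows, 123 (55.2%, 48.6 to 61.5) had a whole word within 20 bases, against 1.49% of 148477 tiles of the same 41 bases cut from all promoter windows. At least 1 of the 4 words stood in 145 of the 239 windows (60.7%, 54.4 to 66.6), against 11.6% of all windows. TGTTTAC was the most frequent near the event, at 56 events (25.1%, against 0.366% of tiles), followed by TGTTTGC at 33 (14.8%, against 0.555%). TGTTGAC stood near 21 events (9.42%, against 0.258%) and TATTTAC near 19 (8.52%, against 0.32%). General promoter words lay near the events at shares closer to those of the tiles. CCAAT lay within 20 bases of 15 events (6.73%, against 6.89% of tiles), GGGCGG of 18 (8.07%, against 10.5%), and TATAAA and CCGGAAG of 3 each (1.35%, against 1.78% and 1.62%).

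Where a window held a Forkhead word, its centre lay a median of 2 bases from the event, within 5 bases for 95 events and within 10 for 113. The event caller, ChExMix, can use sequence motifs when it places events. Whether it did so is not given in the sources, so neither the distance nor the share of events with a word is an independent measure. The windows with an event had a median GC content of 57.7%, against 56.7% for all windows. Their median ratio of observed to expected CpG was 0.754, against 0.566.

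**Figure D1:**
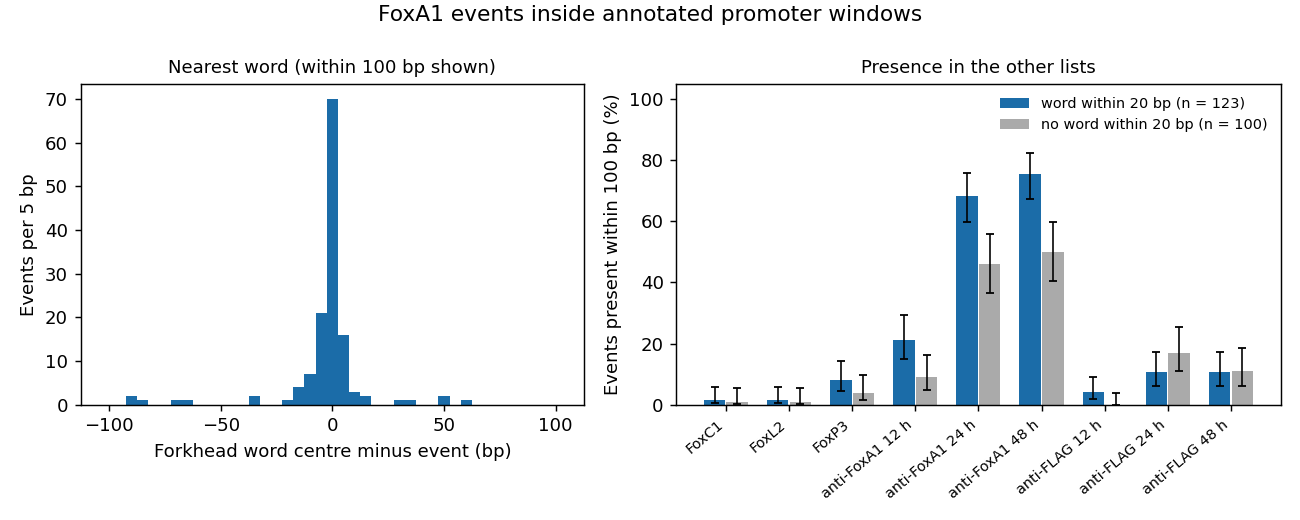
Left, the distance in bp from each event in a promoter window to the centre of its nearest Forkhead word, as events per 5 bp. Right, the share of these events that had a neighbour within 100 bp in another list, for 123 events with and 100 without a word within 20 bp, with 95% Wilson intervals. The distances gather at 0, and the pairs of bars part in the anti-FoxA1 lists.

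Promoter events with a word were present more often in the anti-FoxA1 time course than those without. Presence here and below means an event of the other list within 100 bp. At 24 h, 84 of the 123 events with a word (68.3%) and 46 of the 100 without (46.0%) were present, a difference of 22.3 percentage points (95% Newcombe interval 9.26 to 34.4). At 48 h the difference was 25.6 points (12.9 to 37.4), and at 12 h it was 12.1 points (2.56 to 21.2). In the anti-FLAG course the intervals took in 0, at -6.43 points (-16.0 to 2.62) for 24 h and -0.431 points (-9.18 to 7.76) for 48 h, with 13 of 123 events with a word present at each time. The median score in the combined list was 83 with a word and 72 without, which moves with the same split, and its part in the result was not tested. The course lists came from the same caller, so a use of motifs could bear on this split too, which was not tested.

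The gene-end events were spread thinly over genes. A single coding gene lay within reach of 1555 events, 2 genes of 137 and 3 or more of 3. In turn 1510 genes had 1 event, 127 had 2 and 23 had 3 or more. Joining events within 100 bp of each other left 1684 sites, so few events repeat one another. Of the events, 747 lay inside the nearest gene and 948 outside it.

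Events gathered at gene starts and not at gene stops. The strand was known for 17492 of the 21887 coding genes of the table, and 860 events lay within 1 kb of a start with known strand, 513 of a stop only, and 322 of an end of a gene whose strand was not given. Around starts, the 100 bp bins held 98 event-gene pairs at 200 to 100 bp upstream, 75 in the last 100 bp upstream and 71 in the first 100 bp downstream. The other bins around starts held 28 to 54 pairs, and the bins around stops 21 to 38. Of the events at starts, 229 lay in the core region from 250 bp upstream to 50 bp downstream and 631 farther away. A pair of starts lay within 1 kb of 64 events, and in 63 of these the genes ran in opposite directions.

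**Figure D2:**
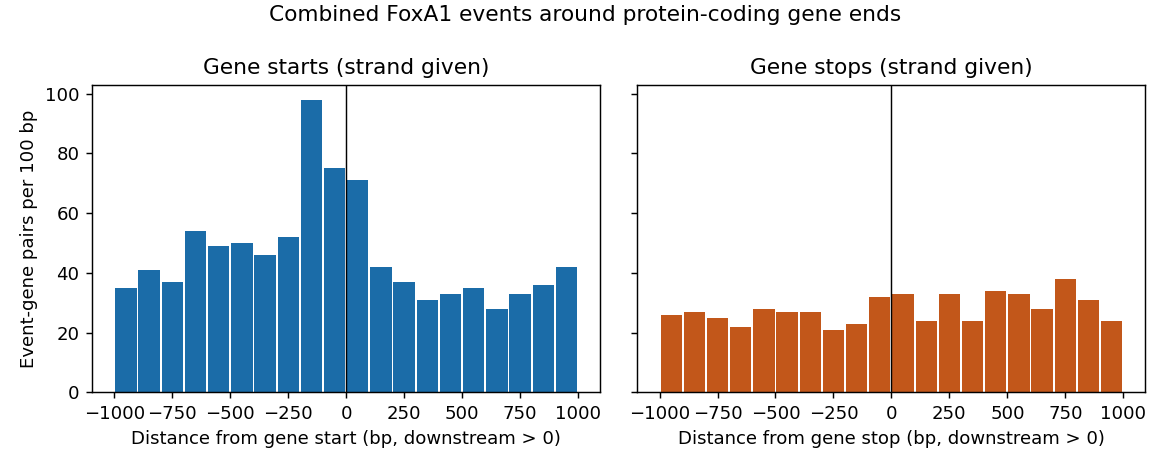
Number of event-gene pairs per 100 bp within 1000 bp of the starts (left) and stops (right) of coding genes with known strand, with downstream distances above 0. The 3 bins from 200 bp upstream to 100 bp downstream of starts hold 71 to 98 pairs, and the bins around stops 21 to 38.

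The events nearest to the edge of the window had scores between 52 and 80. The outermost events inside lay 1000 bp from Scrn1 (score 80) and Ube2s (score 52), the gene of a ubiquitin-conjugating enzyme. The nearest events outside lay 1002 bp from Gfra1 (score 74) and 1003 bp from Ppp2r5a (score 74). At the other extreme, events lay 1 bp from the ends of Padi3 (score 318), a peptidylarginine deiminase, of H2-T24 (score 183) and of Dhx8 (score 106), an RNA helicase. The score is the caller's value for an event, a whole number between 43 and 1000 whose scale is not given, and it is read here only within a list.

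Scores of the gene-end events were low within the combined list. Their quartiles were 60, 84 and 158, against 68, 106 and 227 for the other events. The ceiling of 1000 was reached by 30 of them (1.77%) and by 1054 others (3.37%). These scores belong to the list that chose the events and are given as a description.

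Most of the 30 events at the ceiling were found again in the 24 and 48 h lists of the FoxA1 courses. All 30 had an event in the anti-FoxA1 24 h list, 29 at 48 h and 28 at 12 h. Over all combined FoxA1 events these shares were 54.8%, 58.5% and 19.5%. In each of the anti-FLAG 24 h and 48 h lists 28 had one, beside 33.0% and 29.0%. The 30 were taken by their score. Of the events elsewhere with scores of 223 to 1000, 84.7% were in the anti-FoxA1 24 h list. At anti-FLAG 12 h 17 were present, beside 4.82% of all combined events. The same number were in every one of the 12, 24 and 48 h lists of both courses, beside 2.71% of all gene-end events. A FoxC1, FoxL2 or FoxP3 event lay within 100 bp of 10 of the 30, beside 117 of all 1695 gene-end events. The event 531 bp from the stop of Crebrf was the least shared, with a score of 43 in the anti-FoxA1 24 h list and no event elsewhere. Krtdap, expressed in keratinocytes, had an event with anti-FoxA1 scores of 79, 115 and 86 at 12, 24 and 48 h and none in the anti-FLAG lists.

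**Figure D3:**
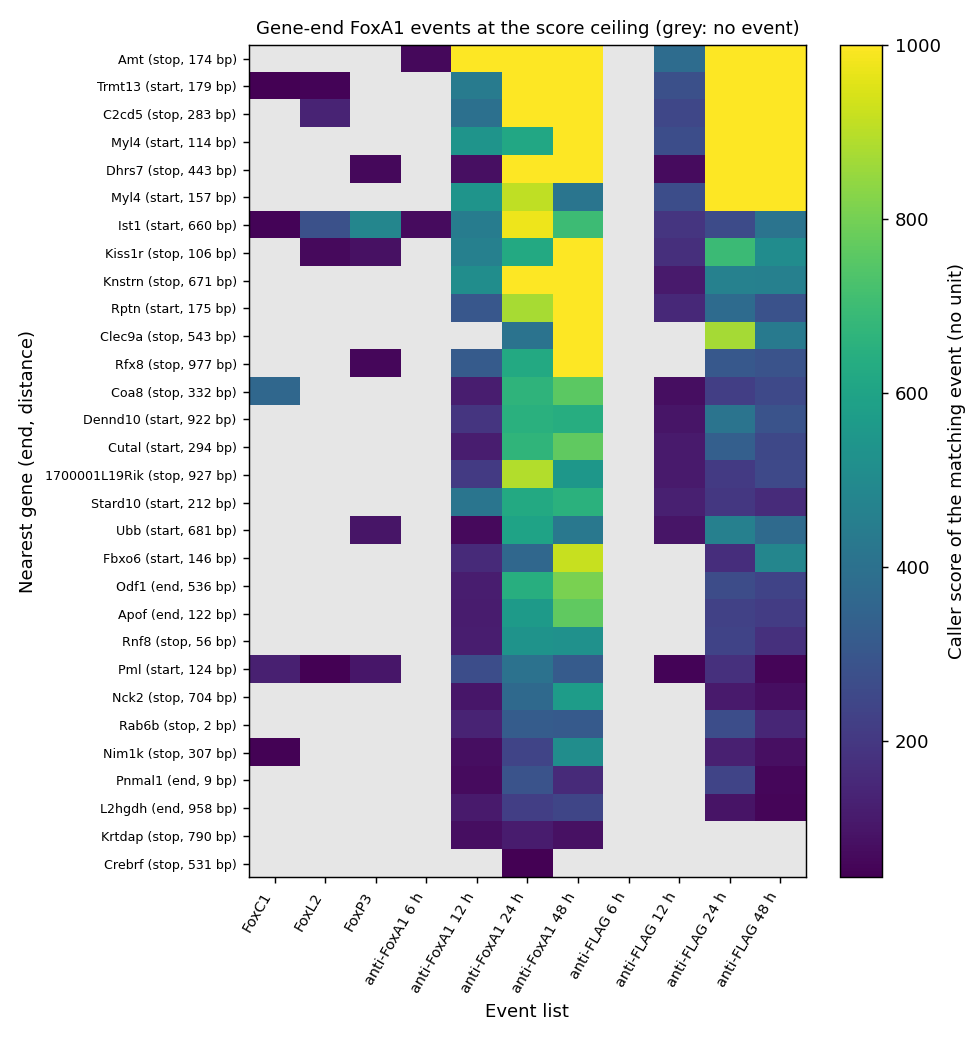
Scores of the events that matched the 30 gene-end FoxA1 events of score 1000, one line per event and one column per list, with grey where the list had no event within 100 bp. Lines are ordered by the sum of their scores. The columns of the anti-FoxA1 24 h and 48 h lists are filled for 30 and 29 events, and those of FoxC1, FoxL2 and FoxP3 for 5, 5 and 6.

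Amt headed these events. It encodes a subunit of the glycine cleavage system, and its event lay inside the gene 174 bp from the stop. The anti-FoxA1 scores were 65 at 6 h and 1000 at each of 12, 24 and 48 h, and the anti-FLAG scores were 381, 1000 and 1000 at 12, 24 and 48 h. No other factor had an event there. Trmt13, 179 bp upstream of its start, had anti-FoxA1 scores of 440, 1000 and 1000 and anti-FLAG scores of 277, 1000 and 1000 at the same times. It also had a FoxC1 event of score 43 and a FoxL2 event of score 54. C2cd5, 283 bp past its stop, had 395, 1000 and 1000 with anti-FoxA1, 245, 1000 and 1000 with anti-FLAG, and a FoxL2 event of score 140. These 3 events were at the ceiling with both antibodies at 24 and 48 h, and their matches in the other factors' lists scored 43 to 140.

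Myl4, the gene of a myosin light chain of atrial muscle, had 2 events at the ceiling 114 and 157 bp inside its start. They lay near enough to each other to share the same matching events in several lists, with anti-FoxA1 12 h scores of 540 and anti-FLAG 12 h scores of 271 for both. Kiss1r, the kisspeptin receptor gene, had an event 106 bp inside its stop with anti-FoxA1 scores of 460, 625 and 1000, anti-FLAG scores of 173, 695 and 510, a FoxL2 score of 66 and a FoxP3 score of 86. Coa8, a factor of cytochrome c oxidase assembly, had a FoxC1 event of score 361 with anti-FoxA1 scores of 121, 666 and 759. Ubb, a polyubiquitin gene, had a FoxP3 event of score 96, 681 bp upstream of its start, with anti-FoxA1 scores of 69, 600 and 425 and anti-FLAG scores of 99, 458 and 372.

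Some genes had several events. Mycn, the gene of the N-Myc transcription factor, had 5, with 3 at its start and 2 at its stop. The highest lay 515 bp inside the stop, with a score of 382, anti-FoxA1 scores of 138, 271 and 309 and anti-FLAG scores of 181 and 117 at 24 and 48 h. The start had events of scores 179, 43 and 43, and the 2 of score 43 had no match in any other list. Dhrs7, Rab6b and Nlrp12 had 4 events each. At Dhrs7, a short-chain dehydrogenase gene, the event of score 1000 lay 443 bp inside the stop, with scores of 83, 1000 and 1000 in the anti-FoxA1 course and 72, 1000 and 1000 in the anti-FLAG course. Its event at the start, of score 63, had no match elsewhere. At Rab6b, a small GTPase gene of the Golgi, the event of score 1000 lay 2 bp inside the stop and an event of score 414 lay 83 bp inside it, both matched by the same course events. Hspa4, Gm7932, Ddx58, which encodes the RNA sensor RIG-I, Fbxo15, Sult6b1 and Atf6, a factor of the unfolded protein response, had 3 each.

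Events at both ends were found for 43 genes with known strand. Besides Dhrs7 and Mycn, those with the highest summed scores were Olfr52, Nde1 and Ptpn3. Nde1, a dynein regulator, had an event of score 340 upstream of its start and one of score 227 past its stop, both present in the anti-FoxA1 24 h list, with scores of 151 and 67. Ptpn3, a tyrosine phosphatase gene, had an event of score 375 inside its stop that was in no other list.

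Of the gene lists, many of which hold few genes, the share with an event was set beside the 7.6% of all coding genes. The lists are descriptions with no test. Among pluripotency genes, 6 of 20 (30.0%, 14.5 to 51.9) had an event: Tbx3, Dppa5a, Klf5, Nanog, Klf4 and Dppa3. Their median score was 87, beside 84 for all gene-end events. The event 822 bp outside Dppa5a, a marker of the pluripotent state, had a score of 128, was in all 6 lists of 12, 24 and 48 h (anti-FoxA1 84, 318 and 288, anti-FLAG 53, 86 and 96), and had a FoxP3 event of score 188. The Nanog event lay 334 bp upstream of the start with a score of 76 and was matched only at anti-FoxA1 24 h, with a score of 112. Tbx3 (score 264) had anti-FoxA1 scores of 142 and 249 at 24 and 48 h and no anti-FLAG event. Klf4 (score 53) and Dppa3 (score 47) had no match in any list, and the 6 genes thus ranged from 6 lists to none.

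Feedback inhibitors and targets of signalling had an event at 4 of 18 genes (22.2%, 9.0 to 45.2). Dusp6, which switches off ERK, had a score of 810, a FoxP3 event of score 92 and anti-FoxA1 scores of 53, 163 and 233. Lefty1, a secreted Nodal antagonist, had 425, with anti-FoxA1 scores of 47, 188 and 110. Etv5, an ETS factor downstream of ERK, had 226, with anti-FoxA1 scores of 46, 156 and 266 and no anti-FLAG event. Spred1, an inhibitor of Ras signalling, had 147 and a FoxP3 event of score 70, with no match in the courses.

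Genes of endoderm and liver, tissues in which FoxA1 is known to act, were described next. Of 20 endoderm regulators 1 had an event (5.0%, 0.888 to 23.6), Cer1, a secreted antagonist of Nodal and BMP, with a score of 243 and no match in any list. Of 20 liver genes 3 had one (15.0%, 5.24 to 36.0), and all 3 were present at 12, 24 and 48 h with anti-FoxA1 and at 24 and 48 h with anti-FLAG. The prothrombin gene F2 had a score of 783 and anti-FoxA1 scores of 166, 470 and 655. Ahsg, which encodes fetuin-A, had a score of 68 and anti-FoxA1 scores of 55, 373 and 341. Tat, tyrosine aminotransferase, had 62, with 126, 386 and 122. None of 20 mesoderm genes had an event, which by the limit of 3 counts allows a share of up to 15.0% (upper Wilson limit 16.1%). Among forebrain and neural genes 1 of 20 had one, Fezf2, a forebrain regulator (score 229).

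The lists of genes with general cellular functions had shares of 8.22% to 17.6%. Cytosolic ribosomal protein genes had an event at 15 of 85 (17.6%, 11.0 to 27.1), mitochondrial ribosomal proteins at 12 of 78 (15.4%, 9.03 to 25.0), respiratory complex I at 8 of 49 (16.3%, 8.51 to 29.0) and proteasome subunits at 5 of 40 (12.5%, 5.46 to 26.1). The interval of the proteasome list takes in the 7.6% of all genes, as does that of the chaperones, at 6 of 73 (8.22%, 3.82 to 16.8). The median scores of the events were 62 for the cytosolic and 71.5 for the mitochondrial ribosomal proteins, 57.5 for complex I and 61 for the proteasome. Of the 15 events at cytosolic ribosomal protein genes, 7 were present at anti-FoxA1 24 h and 3 at anti-FLAG 24 h, beside 53.6% and 23.1% of all gene-end events. None was present at anti-FLAG 48 h, beside 19.8%. Housekeeping genes had an event at 3 of 20 (15.0%, 5.24 to 36.0) and cell cycle genes at 3 of 26 (11.5%, 4.0 to 29.0), Cdc20, Ccne2 and Ccnd3. Both of these intervals also take in the 7.6%.

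Zinc finger protein genes, many of them repressors of transposable elements, had an event at 52 of 465 (11.2%, 8.63 to 14.4). The 55 events were present at anti-FoxA1 48 h for 32 and at anti-FLAG 48 h for 8, and 20 had none in the 12, 24 and 48 h lists. Over all gene-end events these shares were 60.1%, 19.8% and 32.9%. Zfp93 (score 936) had anti-FoxA1 scores of 103, 563 and 629 and anti-FLAG scores of 551 and 296 at 24 and 48 h, and Zscan26 (score 808) had 83, 606 and 820 with 414 and 687. Olfactory receptor genes were at the other end, with 6 of 1110 (0.541%, 0.248 to 1.17), as were vomeronasal receptors with 1 of 353 (0.283%, 0.05 to 1.59), Vmn1r235, and protocadherins with none of 69, which by the same limit allows up to 4.35% (upper Wilson limit 5.27%). Olfr52 was high among the olfactory receptors (score 798), 810 bp upstream of its start and in all 6 lists of 12, 24 and 48 h.

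Chromatin regulators had an event at 2 of 24 (8.33%, 2.32 to 25.8), Tet2, which oxidises methylated cytosine (score 97), and Dnmt3b, a DNA methyltransferase (score 96). Both were matched at anti-FoxA1 24 h, with scores of 74 and 43, and neither with anti-FLAG. Of 44 Forkhead family genes 4 had an event (9.09%, 3.59 to 21.2), Foxb1 (score 137), Foxp2 (86), Foxd3 (77) and Foxd4 (48), none matched in the anti-FLAG lists. Over all gene-end events 23.1% and 19.8% were in the anti-FLAG lists of 24 and 48 h. Of 39 Hox genes 2 had one, Hoxc4 (score 48) and Hoxb4 (43). Histone genes outside the chromosome 13 cluster had one at 7 of 25 (28.0%, 14.3 to 47.6). Of these 7 events 5 had no match in the 12, 24 and 48 h lists, beside 32.9% of all gene-end events. Among the chaperone genes, Hspa4, of the HSP110 type, had 3 events, the highest of score 560.

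Few gene-end events lay near events of the other Forkhead factors. FoxC1 was present at 32 (1.89%, beside 1.94% of all combined FoxA1 events), FoxL2 at 49 (2.89%, beside 4.19%) and FoxP3 at 68 (4.01%, beside 5.85%). Against the FoxA1 events elsewhere, the difference was -0.0511 percentage points for FoxC1 (95% Newcombe interval -0.621 to 0.728). It was -1.37 points for FoxL2 (-2.1 to -0.432) and -1.94 points for FoxP3 (-2.81 to -0.862), so gene-end events were lower in these 2 lists. With the other events weighted to the score deciles of the gene-end events, the intervals took in 0, at -0.709 points for FoxL2 (-1.43 to 0.223) and -1.01 for FoxP3 (-1.88 to 0.0556). No other factor was present at 1578 events, 1 at 92, 2 at 18 and all 3 at 7.

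The 7 events with all 3 factors differed widely in their FoxA1 scores. The Pml event, 124 bp upstream of the gene start in the table, had scores of 1000 for combined FoxA1, 126 for FoxC1, 43 for FoxL2 and 102 for FoxP3, with anti-FoxA1 scores of 268, 403 and 317 and anti-FLAG scores of 53, 174 and 56. The event 660 bp inside the start of Ist1, an ESCRT-III-related protein of membrane remodelling, had 1000, 53, 280 and 482, and it was also in the anti-FoxA1 6 h list with a score of 72. Adamts6, a secreted metalloprotease gene, had 544, 137, 232 and 270. Alyref2, an mRNA export factor gene, had 498, 45, 73 and 56, and Fam169a had 491, 93, 73 and 146. Gm2137 had 59, 83, 76 and 84 and was matched in 1 course list, at anti-FoxA1 24 h. Synm, the gene of the intermediate filament protein synemin, had 50, 70, 1000 and 65, at the ceiling for FoxL2 and in no FoxA1 course list.

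Of 117 events with at least 1 other factor, 26 (22.2%) were in no FoxA1 course list of 12, 24 or 48 h, beside 532 of the 1578 with no other factor (33.7%). The median FoxA1 score was 82 with no other factor and 174, 155 and 124 with FoxC1, FoxL2 or FoxP3 alone. With more than 1 factor the medians ran from 62 to 498. The part of the score in this contrast was not tested. Of the 25 with at least 2 other factors, 6 were in none. FoxC1 with FoxP3 and without FoxL2 was present at 5 events, 4 of them in no course list. Of these 4, 3 lay at the stop of Nlrp12, a gene of the NLR family of innate immunity, with scores of 144, 122 and 96 in the combined FoxA1 list, 161, 60 and 120 for FoxC1 and 256, 48 and 104 for FoxP3. The other lay inside Hspa8, a constitutive HSP70 gene, with 84, 79 and 69. By contrast all 10 events with FoxC1 and FoxL2 alone were in a course list. Trmt13 and Ak7, an adenylate kinase gene (score 758), were among them.

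Presence in the anti-FoxA1 course rose with the length of the lists. That of 6 h held 86 events, that of 12 h 8345, that of 24 h 35134 and that of 48 h 41726. None of the gene-end events was in the 0 h lists or the anti-FLAG 6 h list, which by the limit of 3 counts allows up to 0.177%. These 3 lists held 15, 20 and 17 events. At 6 h, 4 gene-end events were present (0.236%, beside 0.325% of all combined events): Amt, both Ist1 events, which match 1 event of score 72, and Sult6b1, a sulfotransferase gene, with a score of 50. At 12 h, 288 were present (beside 19.5% of all combined events), at 24 h 908 (53.6%, beside 54.8%) and at 48 h 1018 (60.1%, beside 58.5%). The differences from FoxA1 events elsewhere were -2.68 points (-4.45 to -0.771) at 12 h, -1.34 (-3.78 to 1.09) at 24 h and 1.63 (-0.788 to 4.0) at 48 h. Weighted to the same scores, the difference at 12 h turned to 1.97 points (0.223 to 3.86), that at 24 h to 4.23 (1.79 to 6.66), and that at 48 h was 6.62 (4.2 to 8.99). Counting as present only events of at least the median score of the 24 h and 48 h lists, the differences were -4.36 (-6.62 to -2.03) and -3.11 points (-5.46 to -0.71), so the sign with this antibody rests on the setting.

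The anti-FLAG course showed the gene-end events less often than other FoxA1 events. At 12 h, 57 were present (3.36%, beside 4.82%), at 24 h 391 (23.1%, beside 33.0%) and at 48 h 336 (19.8%, beside 29.0%). The differences from FoxA1 events elsewhere were -1.54 points (-2.33 to -0.539), -10.4 points (-12.4 to -8.3) and -9.69 points (-11.6 to -7.67). With the score weighting the differences at 24 and 48 h were smaller, at -4.47 (-6.47 to -2.36) and -4.25 (-6.13 to -2.24), and still below 0, while that at 12 h turned to 0.258, with an interval that took in 0. The score is that of the combined list, and its part in the differences beyond this weighting was not tested.

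**Figure D4:**
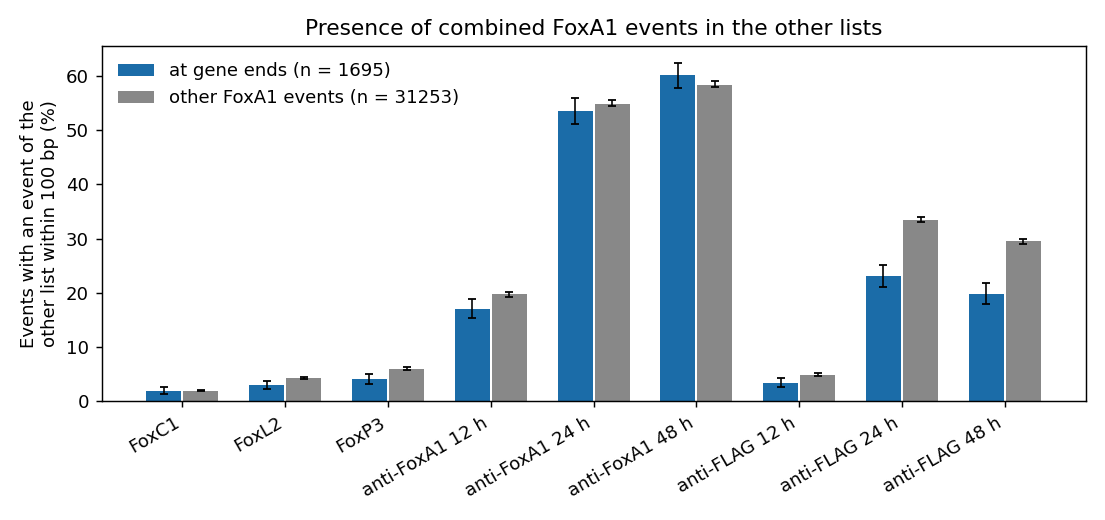
Share of the 1695 gene-end FoxA1 events and of the 31253 other combined FoxA1 events with an event within 100 bp in each list, in percent, with 95% Wilson intervals. In the anti-FLAG 24 h and 48 h lists the gene-end bars stand at 23.1% and 19.8% and the others at 33.5% and 29.5%.

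The combined list was also cut into 4 score ranges at its quartiles. In the lowest, scores 43 to 68, 6.54% of gene-end events and 12.6% of others were in the anti-FLAG 24 h list, a difference of -6.08 points (-7.92 to -3.73). The next 2 ranges gave 14.2% and 19.0% (-4.78, -7.9 to -1.05) and 26.7% and 33.6% (-6.95, -11.3 to -2.08). In the highest range, scores 223 to 1000, the shares were 67.1% and 68.9%, a difference of -1.76 points whose interval, -7.49 to 3.52, took in 0. In the anti-FoxA1 24 h list the differences were -1.92 (-5.56 to 1.96), 4.68 (-0.139 to 9.54), 10.9 (5.99 to 15.4) and 4.84 (0.673 to 7.98) from the lowest range to the highest. In the same order, those of anti-FLAG 48 h were -5.16 (-6.82 to -2.98), -4.53 (-7.45 to -0.984), -5.43 (-9.62 to -0.711) and -4.67 (-10.6 to 1.04). Those of anti-FoxA1 48 h were 1.05 (-2.87 to 5.1), 10.5 (5.66 to 15.2), 10.6 (5.72 to 14.9) and 4.6 (0.435 to 7.74).

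At 24 and 48 h more gene-end events than others were seen with anti-FoxA1 alone. At 12 h the share with anti-FoxA1 alone was 14.0% at gene ends and 15.2% elsewhere. At 24 h both antibodies had an event at 373 gene-end events (22.0%), anti-FoxA1 alone at 535 (31.6%), anti-FLAG alone at 18 (1.06%) and neither at 769 (45.4%). Elsewhere these shares were 31.1%, 23.8%, 2.38% and 42.7%. At 48 h the 4 groups held 331, 687, 5 and 672 gene-end events (19.5%, 40.5%, 0.295% and 39.6%), and elsewhere 28.3%, 30.1%, 1.2% and 40.4%. Etv5, Tbx3 and Tet2, given above, are among those seen with anti-FoxA1 alone.

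Events present at 24 h were followed to 48 h. Of the 908 in the anti-FoxA1 24 h list, 88.0% (85.7 to 90.0) were also in the 48 h list, against 86.2% (85.7 to 86.7) elsewhere. Of the 391 in the anti-FLAG 24 h list, 71.6% (66.9 to 75.9) were in that of 48 h, against 71.7% (70.8 to 72.6). The first time of presence in the anti-FoxA1 course was 6 h for 4 events, 12 h for 284, 24 h for 633 and 48 h for 212, and 562 were in none of its lists. These were 0.236%, 16.8%, 37.3%, 12.5% and 33.2% of gene-end events, against 0.33%, 19.4%, 36.3%, 10.6% and 33.4% elsewhere. In all 6 lists of 12, 24 and 48 h there were 46 gene-end events (2.71%, against 4.15% elsewhere), and in none of them 558 (32.9%, against 32.0%). Pml, Ist1, Amt, Kiss1r and Ubb belong to the 46, as does Tff2, a trefoil factor gene of mucous epithelium (score 510).

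Core-start and stop events differed in presence with both antibodies at 48 h and with anti-FLAG at 24 h. In the anti-FLAG 24 h list, 16.6% of the core-start events were present (12.3 to 22.0), 21.7% of the start events farther away (18.7 to 25.1), 27.7% of the stop events (24.0 to 31.7) and 23.0% of those with no strand (18.7 to 27.9). Core-start minus stop events was -11.1 points there (-16.9 to -4.58). At 48 h core minus stop was -12.0 points (-17.5 to -5.92). With anti-FoxA1 at 48 h the order was the other way, with 65.9% of core-start and 57.9% of stop events present, a difference of 8.04 points (0.427 to 15.3), and at 24 h it was 7.44 points (-0.313 to 14.9). At 12 h it was -2.12 points (-7.7 to 4.09) with anti-FoxA1 and -2.3 points (-4.79 to 0.888) with anti-FLAG. The median combined score was 80 for core-start and 93 for stop events.

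**Figure D5:**
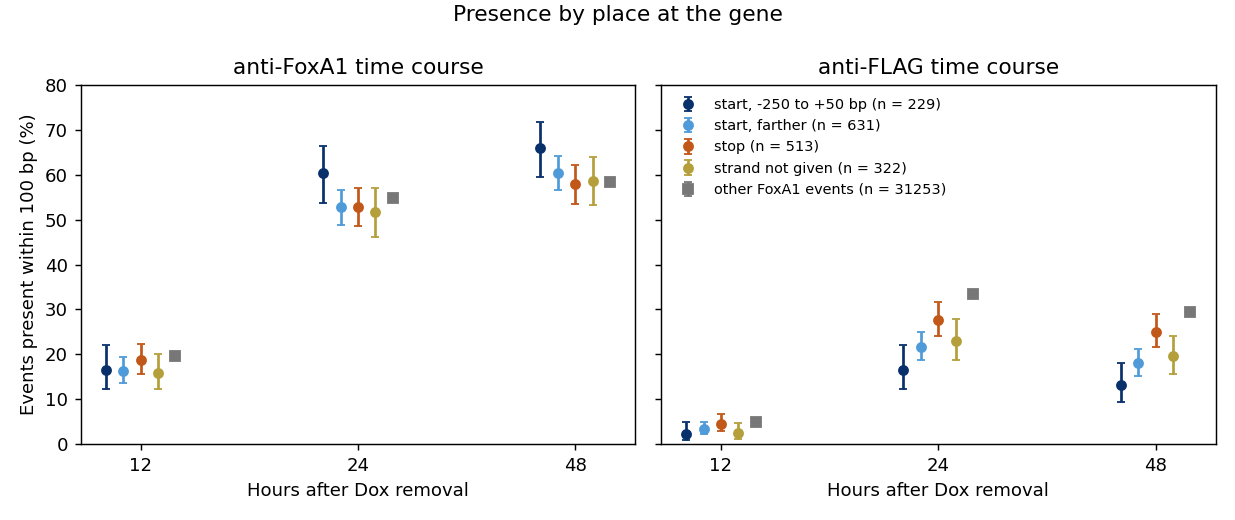
Share of events present within 100 bp in the anti-FoxA1 (left) and anti-FLAG (right) lists at 12, 24 and 48 h, in percent with 95% Wilson intervals, by place at the gene. In the anti-FLAG lists at 24 h the core-start events (16.6%) lie lowest and the other FoxA1 events (33.5%) highest.

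Single core-start events varied. Of the 25 with the highest combined scores, 18 were present in the anti-FLAG 24 h or 48 h list and 25 in the anti-FoxA1 24 h or 48 h list. Taken list by list at 24 and 48 h, all core-start events had 16.6% and 13.1% with anti-FLAG, and 60.3% and 65.9% with anti-FoxA1. Events elsewhere with scores of 223 to 1000 had 68.9% and 61.7%, and 84.7% and 84.9%. The counts of the 25 thus go with a choice by score. At Dusp6 the anti-FLAG score was 53 at 24 h with none at 48 h, beside anti-FoxA1 scores of 163 and 233. Cald1, the gene of the actin-binding protein caldesmon, had a score of 505 and anti-FoxA1 scores of 55, 127 and 178 at 12, 24 and 48 h, with no anti-FLAG event and a FoxP3 event of score 49. Hspbp1, a partner of HSP70 chaperones, had anti-FoxA1 scores of 88, 362 and 547 and an anti-FLAG score of 48 at 24 h. At Agr2, the gene of a protein disulfide isomerase of secretory epithelia, anti-FoxA1 gave 115, 461 and 1000 and anti-FLAG 320 and 572 at 24 and 48 h.

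The share of each whole list that lay at gene ends was also counted. Unlike presence, it takes in events with no combined FoxA1 event nearby. In the combined FoxA1 list it was 5.14% (4.91 to 5.39). It was 5.47% (5.26 to 5.7) of the anti-FoxA1 48 h list, 4.88% (4.66 to 5.11) at 24 h and 4.31% (3.9 to 4.77) at 12 h. In the anti-FLAG lists it was 3.44% (2.67 to 4.43), 3.37% (3.1 to 3.66) and 3.41% (3.12 to 3.73) at 12, 24 and 48 h. FoxC1 had 5.4% (4.21 to 6.88), FoxP3 4.7% (4.11 to 5.36) and FoxL2 3.33% (2.94 to 3.77). All factor lists other than FoxA1 come from anti-FLAG libraries.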

How the data were processed

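The submitters' processing notes name BWA 0.7.17-r1188, the build mm10, Picard and SAMtools. ChExMix called the events, per the file headers. Its version, thresholds, controls and the merging of libraries are not given in the sources. Each deposited event is 1 bp wide and carries a score, per the file headers a caller's value. The files hold no reads, so depth is unknown. From 14 lists, positions were compared with 21887 protein-coding genes of GRCm38.p6, 54 cluster histone genes left out. Strand came from the RefSeq promoter table and was lacking for 4395 genes. Promoter windows of 1 chromosome were not used. Some items of the series are not reported here. There were 0 columns of other series.

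Computation used Python 3.11.15, numpy 2.4.6 and pandas 2.3.3 and was tested on simulated data. Shares have Wilson and differences Newcombe 95% intervals, and a difference is read as such where its interval leaves out 0. No p-value was computed. Alternatives changed the window, the match distance, the score, the ends and the chromosomes. The events, gene lists and rules were chosen with earlier results of these data known.

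Named genes were the 10 with the most events, events with all 3 other factors or in the anti-FoxA1 6 h list, up to 4 per gene list by score, the 10 of highest score in all 6 late lists, the 3 nearest an end, those at the edge of 1 kb, and 5 with events at both ends. Sequences were the 9 highest-scoring with a word and the 4 without. Others (Klf4, Dppa3, Crebrf, Krtdap, Ak7, Tff2, Agr2, Mobp and further promoter examples) were chosen after their values were seen.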

Additional observations from a re-analysis of the deposited data

Results flagged for a closer look

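Gene-end events differed from other FoxA1 events by antibody. The difference in presence between gene-end and other events was more negative with anti-FLAG than with anti-FoxA1, by -9.09 percentage points at 24 h (95% interval -11.4 to -6.74) and by -11.3 points at 48 h (-13.7 to -8.9). At 12 h the same quantity was 1.15 points, with an interval of -0.582 to 2.88 that took in 0. Counting only events of at least the median score of each course list brought the antibodies nearer to each other. The differences were then -7.6 (anti-FLAG) and -4.36 (anti-FoxA1) at 24 h, and -5.91 and -3.11 at 48 h. Weighted to score deciles they were -4.47 and 4.23 at 24 h, and -4.25 and 6.62 at 48 h. The part of the list threshold was not tested. Each list is 1 library, so antibody and library cannot be told apart.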

How the results depend on the processing

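The gene-end events numbered 951 with 500 bp around gene ends, 3004 with 2 kb, 666 with FoxA1 events of at least the median score and 860 with starts alone, and the genes 951, 2883, 666 and 858. Joining events, leaving out those near cluster histone genes and autosomes alone kept both counts within 1.5 times. The lower presence with anti-FLAG at 24 and 48 h had an interval below 0 in all 10 settings each, from -13.0 to -4.47 and from -12.6 to -4.25 points.

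Using higher-scoring FoxA1 events gave 0.343 points for FoxC1 and -1.38 for FoxL2 (interval taking in 0), 0.625, 6.66 and 6.67 for anti-FoxA1 at 12, 24 and 48 h, and -1.28 for anti-FLAG 12 h (taking in 0). Weighting to score deciles gave 1.97, 4.23 and 6.62 for anti-FoxA1 at 12, 24 and 48 h, 0.46 for FoxC1, -0.709 and -1.01 for FoxL2 and FoxP3, and 0.258 for anti-FLAG 12 h. Starts alone gave -1.47 for FoxP3 and 3.43 for anti-FoxA1 48 h. For anti-FoxA1 at 24 and 48 h, matching within 50 bp gave 0.791 and 3.29, 500 bp around ends 0.0501 and 3.84, and higher-scoring events of the other list -4.36 and -3.11, and 2 kb gave 2.5 at 48 h. The cause was not tested. Thus the sign in the anti-FoxA1 lists depends on these settings. The other alternatives kept direction and side.

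No paired analysis was possible because each combined list merges its replicates and each time point has 1 library. For the same reason leaving out 1 replicate was not run. The files hold no reads, so depth is unknown.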

Other observations

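Small RNA genes near the events were counted too. A miRNA gene lay within 1 kb of 15 gene-end events (0.885%) and 41 others (0.131%), and a tRNA gene within 1 kb of 6 (0.354%) and 19 (0.0608%). A snoRNA gene lay within 1 kb of 6 (0.354%) and 24 (0.0768%), and a snRNA gene of 3 (0.177%) and 48 (0.154%). Many miRNA and snoRNA genes lie in or beside coding genes, and these shares are given with no test.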
